A study of Rattus norvegicus with 64 samples.

Results

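The genes described here encode the enzymes that build cholesterol and fatty acids, together with the proteins that regulate them. A list of 34 gene symbols defined the members, and 33 of them had a row among the 17260 genes of the counted annotation, so that 33 genes are described. They fall into 7 enzymes of the mevalonate branch, 11 enzymes of the squalene and sterol branch (the squalene synthase Fdft1 and 10 that act from squalene onward), 4 regulators, and 11 genes of fatty acid synthesis, elongation and desaturation. The symbol without a row was Scd, a stearoyl-CoA desaturase that places a double bond in saturated fatty acids. The files held Scd1 and Scd2, and since the RefSeq table gave an older name in common with Scd to each of them, neither was counted as a member.

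Total RNA depleted of ribosomal RNA was sequenced from layer II (LII) and from layers III to VI (LDeep) of the medial (MEC) and the lateral (LEC) entorhinal cortex. The animals were Long Evans rats of postnatal day 2, 9, 23 or 45 (P2, P9, P23, P45). Each combination of region and layer comprised 5 samples of P2, 4 of P9, 3 of P23 and 4 of P45, which makes 64 samples in 16 groups. The layers were dissected from unstained slices, and each sample is a mixture of neurons, glia, vessels and meninges. The labels number the replicates of a group but do not say that they are separate animals, and p-values therefore measure the spread between these samples only. Nor do they say whether samples of an age with the same number share an animal, and the main tests treat all samples as independent.

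Cholesterol cannot be supplied to the brain by plasma lipoproteins, and neurons, astrocytes and above all myelinating oligodendrocytes make their own. Its synthesis starts from acetyl-CoA, passes through mevalonate, farnesyl diphosphate and squalene, and ends with the modification of lanosterol. Most of these enzymes are under the control of the SREBP transcription factors (Srebf1, Srebf2), which are escorted from the endoplasmic reticulum by Scap and held back there by Insig1 when sterols are plentiful. Fatty acids are made from citrate by Acly, Acaca and Fasn, lengthened by the Elovl elongases and desaturated by the Fads enzymes.

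Between 3894334 and 11439143 counts per sample fell on genes (median 7569157.5), and the members took between 0.352% and 0.921% of them. At this depth 1 count stood for 0.0874 to 0.257 CPM (counts scaled by library size), and the lowest counts of a member in a sample were 2 for Elovl7, 4 for Elovl6, 14 for Hsd17b7 and 16 for Ebp. The labels of the layers were checked against markers. Reln and Calb1, which mark LII neurons, were higher in LII with the ages combined (LFC 1.48 and 0.93), and 5 of 5 deep-layer markers were lower there. Of 7 markers of meningeal fibroblasts, 6 were also higher and 1 lower in LII (median LFC of the list 3.82). At P2 their summed level was 18.5 and 33.9 CPM in replicates 1 and 3 of MEC LII, against 522 to 1311 CPM in the other 3 replicates, while it was 1088 CPM in replicate 1 of MEC LDeep against 43.3 to 85.5 CPM in the other 4. This LDeep sample also held 774.5 CPM of Reln and Calb1 together, against 256.8 to 382.7 CPM in the other 4. Replicate 1 of MEC LII at P2 held 688 CPM of them. The deep-layer markers of this LDeep sample summed to 1002 CPM, against 807 to 1989 CPM in the other 4. Replicates 1 and 3 of MEC LII at P2 and replicate 4 of LEC LDeep at P45 correlated least with their own group (median r 0.914, 0.9445 and 0.954), and the calls of members that are lost without these 3 libraries are given beside the results. Replicate 1 of MEC LDeep at P2 is not among these 3 and stayed in the fit without them. In replicate 1 of MEC LII at P2, Slc17a7, the vesicular glutamate transporter of cortical excitatory neurons, was at -0.21 log2 CPM (6 counts), against 7.97 to 9.44 in the other 9 samples of LII at P2. Gad1 and Gad2, which mark inhibitory neurons, were at 9.40 and 8.58 in it, against 6.24 to 7.77 and 5.02 to 7.06 in the others, so that the marker of excitatory neurons was nearly absent from this library.

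Per kb of exon, the abundances of the members spanned a wide range. Over all 64 samples, Hmgcs1, the cytosolic HMG-CoA synthase, was highest with a median of 8.53 log2 CPM per kb, followed by the farnesyl diphosphate synthase Fdps (7.65), the ATP citrate lyase Acly (6.88), the sterol methyl oxidase Msmo1 (6.74) and the fatty acid desaturase Fads2 (6.73). At the other end were the elongase Elovl7 (2.83), the sterol isomerase Ebp (2.25) and the elongase Elovl6 (-0.75). The ranges of neighbours in this order overlapped, with the exception of the last pair, as Ebp was nowhere below 1.29 and Elovl6 nowhere above -0.03. Elovl5 and Elovl7 had annotated exon lengths of only 0.9 and 0.875 kb, and the exons of Elovl6 were listed on both strands, which makes their place in the order uncertain. The median level of a member over samples was highest at P9 for 17 members, at P2 for 9, at P45 for 4 and at P23 for 3.

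As many of the sterol enzymes changed together, the sequences before their starts are shown. RefSeq promoters of build GRCr8 were at hand for 27 of the 33 members, covering 250 bases before and 50 after the annotated start, and were searched on both strands for CCAAT, the box of the factor NF-Y that works beside the SREBPs, for GGGCGG, the box of Sp1, and for TCACNCCAC, a core of the sterol regulatory element. A match to any of these motifs is never by itself a match to another. The following 4 stretches are the 200 bases directly before the start, 5′ to 3′ on the strand of the gene, with CCAAT and its reverse complement in capitals. They belong to the most abundant member (Hmgcs1, chr2:53382104-53382303, plus strand, where the start given lies inside the RefSeq gene), to the members with the largest fall after P9 (Idi1, chr17:66547525-66547724, minus strand) and with the largest layer difference (Fdps, chr2:176804817-176805016, minus strand), and to a member with 5 boxes (Mvk, chr12:47819504-47819703, minus strand).
Hmgcs1: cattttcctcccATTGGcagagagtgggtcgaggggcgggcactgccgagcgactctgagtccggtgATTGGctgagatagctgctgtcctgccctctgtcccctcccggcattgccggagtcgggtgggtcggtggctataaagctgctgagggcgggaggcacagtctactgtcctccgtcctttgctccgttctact
Idi1: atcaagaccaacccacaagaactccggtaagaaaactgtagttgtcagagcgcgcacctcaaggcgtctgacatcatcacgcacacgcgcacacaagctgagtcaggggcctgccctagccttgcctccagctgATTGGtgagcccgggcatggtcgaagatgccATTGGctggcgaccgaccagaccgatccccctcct
Fdps: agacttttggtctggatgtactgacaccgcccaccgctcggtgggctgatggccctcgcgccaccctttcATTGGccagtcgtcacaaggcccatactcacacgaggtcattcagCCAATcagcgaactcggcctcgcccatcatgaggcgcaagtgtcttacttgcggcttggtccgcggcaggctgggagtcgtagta
Mvk: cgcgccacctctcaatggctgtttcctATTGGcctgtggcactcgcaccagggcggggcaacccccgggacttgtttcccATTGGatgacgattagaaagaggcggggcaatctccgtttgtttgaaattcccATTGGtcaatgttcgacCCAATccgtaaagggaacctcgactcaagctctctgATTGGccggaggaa
Both Hmgcs1 and Idi1 held 2 boxes, as did Fdps, where they lay 130 and 85 bases before the start. The nearest boxes of Idi1 and Mvk lay 35 and 14 bases before the start. CCAAT was found in 12 of 15 sterol enzymes with a promoter (80.0%), in 4 of 8 fatty acid genes and in 3 of 4 regulators (75.0%), while 37.63% of the 9368 tested genes with a promoter and 37.49% of all 33469 promoters held it. The promoters of Acat2, Cyp51 and Dhcr7 held no CCAAT. Acat2 and Dhcr7 had the largest falls after P9 next to Idi1 (LFC -1.56 and -1.48). In 10 of the sterol enzymes a promoter had at least 2 boxes, against 13.51% of the tested genes. GGGCGG was present in 13 of 15 sterol enzymes (86.67%) and in 62.19% of the tested genes (33.06% of all promoters). TCACNCCAC was found in 0 of the 27 members and in 1.196% of the tested genes (1.117% of all promoters). With so low a share, 0 matches among 27 genes say little, and other forms of the element were not searched. These matches describe letters in a window and are no test of binding. A link between them and the changes of the members was not tested.

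Expression was compared with edgeR's quasi-likelihood test on 12521 genes that passed its filter on low counts, among them all 33 members with a row. Levels are log2 CPM, the LFC is the difference of group means on the log2 scale with its standard error (SE), and a gene was called at a Benjamini-Hochberg (BH) adjusted p below 0.05 over all genes tested. The comparisons of adjacent ages share the samples of the age between them, and the layer comparison at each age shares samples with the combined one.

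Between P2 and P9, 10 of 18 enzymes of cholesterol synthesis rose and 2 fell, whereas the genes for making fatty acids from citrate (Acly, Acaca and Fasn) fell. Of the 33 members, 15 were higher at P9, while 31.5% of all genes tested were called in this direction, and 6 were lower (31.8% of all genes). The median LFC was 0.14 for the members and -0.00 for all genes. In the mevalonate branch 4 of 7 rose, namely Pmvk, Idi1 (0.33), Mvd (0.29) and Hmgcs1 (0.25), and Acat2 fell. In the squalene and sterol branch 6 of 11 rose, and the squalene synthase Fdft1 fell (-0.19). Insig1 was the regulator that passed the test (0.39), with adjusted p of 0.0887 or above for the other 3. Among the fatty acid genes, 4 rose (Elovl7, Fads1, Elovl5 and Elovl4) and 4 fell (Fasn, Acaca, Fads2 and Acly).

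Elovl7 elongates saturated fatty acids (chr2:40373211-40386643 of rn6, minus strand). It ranged from -0.71 to 2.18 log2 CPM in the 20 samples at P2 (median 1.32) and from 1.4 to 3.16 in the 16 samples at P9 (median 2.36). The ages overlapped, but P9 was higher in 4 of 4 combinations of region and layer (LFC 1.27, SE 0.19, adjusted p 4.81e-08). Pmvk, the phosphomevalonate kinase, went from 4.99 to 5.80 at P2 (median 5.47) to 5.73 to 6.43 at P9 (median 6.05). It rose 1.53-fold, with only the edges of both ranges in common (LFC 0.61, SE 0.07, adjusted p 1.19e-11). Msmo1 had levels of 6.43 to 7.73 at P2 (median 7.30) and of 7.49 to 8.14 at P9 (median 7.83), and its LFC was 0.53 (SE 0.09, adjusted p 3.72e-07).

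Fasn, the fatty acid synthase (chr10:109987735-110005901 of rn6, minus strand), showed the largest fall in this interval. It lay between 9.92 and 11.45 log2 CPM at P2 (median 10.53) and between 9.29 and 10.34 at P9 (median 9.91). The level fell 1.61-fold (LFC -0.69, SE 0.11, adjusted p 7.27e-07), in 4 of 4 combinations of region and layer. Acaca, the acetyl-CoA carboxylase that supplies Fasn with malonyl-CoA, fell too, from a median of 8.66 (8.13 to 9.15) to 8.26 (7.78 to 8.74) (LFC -0.41, SE 0.07, adjusted p 4.40e-06). For the cytosolic thiolase Acat2 the difference was smaller, with 6.40 to 7.53 at P2 (median 6.97) and 6.32 to 7.51 at P9 (median 6.67), almost the same range (LFC -0.26, SE 0.08, adjusted p 0.00252). With counts summed over the samples of an age and replicate number, Acat2 did not pass the test (LFC -0.24, adjusted p 0.0966). The calls of Idi1, Fdft1, Sqle and Elovl4 each lost the threshold when at least 1 replicate number was left out.

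From P9 to P23 synthesis genes fell across the pathway. Of the 33 members, 23 were lower at P23, while 32.1% of all genes were called lower, and 5 were higher (32.4% of all genes). The median LFC was -0.58 for the members against 0.01 for all genes. All 7 enzymes of the mevalonate branch fell, with a median LFC of -1.26, and 9 of 11 enzymes of the squalene and sterol branch fell, with a median of -0.99. In 13 members every sample at P23 lay below every sample at P9 (6.45% of all genes did so), namely Acat2, Hmgcs1, Mvk, Mvd, Idi1, Fdft1, Sqle, Lss, Hsd17b7, Dhcr7, Acly, Acaca and Fads2. In 0 members did P23 lie wholly above P9 (6.37% of all genes).

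Idi1, the isopentenyl diphosphate isomerase (chr17:57976266-57984036 of rn6, minus strand), fell the most. Its 16 samples at P9 lay between 6.56 and 7.90 log2 CPM (median 7.06), and its 12 samples at P23 between 4.89 and 6.11 (median 5.19). The groups did not overlap, and the level fell 3.27-fold (LFC -1.71, SE 0.15, adjusted p 1.79e-14). Acat2 (chr1:47972399-47992654, plus strand) ranged from 6.32 to 7.51 at P9 (median 6.67) and from 4.58 to 5.64 at P23 (median 5.29). Its fall was 2.95-fold, again without overlap (LFC -1.56, SE 0.09, adjusted p 4.43e-21). Dhcr7, the reductase that completes cholesterol (chr1:217018916-217034890, plus strand), had 7.01 to 7.64 at P9 (median 7.16) and 5.29 to 6.01 at P23 (median 5.76), a clear gap between the groups. It fell 2.79-fold (LFC -1.48, SE 0.07, adjusted p 1.95e-24), in 4 of 4 combinations of region and layer, as did Idi1 and Acat2. In a mixture of cells, a loss of cells that express these genes and a lower RNA level in each cell cannot be told apart.

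The remaining mevalonate enzymes followed with LFC of -1.27 (Mvd), -1.26 (Fdps), -1.25 (Hmgcs1), -0.63 (Mvk) and -0.17 (Pmvk). Hmgcs1 went from 10.34 to 11.01 at P9 to 8.99 to 10 at P23, and Fdps from a median of 8.23 to 7.02. Pmvk stood apart, with ranges of 5.73 to 6.43 and 5.41 to 6.24 that overlapped widely and an adjusted p of 0.0446, which rose above the threshold in 6 of the 16 fits without 1 replicate number (adjusted p 0.335 without replicate 1 at P23). In the squalene and sterol branch, the largest falls after that of Dhcr7 were those of Sqle and Lss, the squalene epoxidase and the lanosterol synthase (both LFC -1.32), Tm7sf2 (-1.05), Hsd17b7 (-1.03) and Fdft1 (-0.99). Nsdhl, Msmo1 and Cyp51 fell less (-0.64, -0.40 and -0.35). Ebp and the sterol desaturase Sc5d were not called, with an LFC of 0.27 (adjusted p 0.0565) and of -0.02 (adjusted p 0.780).

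Regulators and fatty acid genes were mixed in this interval. Insig1 fell (LFC -0.58, adjusted p 2.00e-07), whereas Srebf1 and Scap rose. Srebf1 (chr10:46570996-46593009, minus strand) ranged from 5.35 to 6.28 at P9 (median 5.91) and from 5.69 to 6.94 at P23 (median 6.20), and the ages overlapped. Its LFC was 0.49 (SE 0.10, adjusted p 2.93e-05), and the LFC of Scap was 0.22 (adjusted p 0.00517). Srebf2 had an LFC of 0.18 (adjusted p 0.119). Fasn (-0.91), Fads2 (-0.89), Acaca (-0.80) and Acly (-0.56) fell, as did Elovl4 (-0.32) and Elovl2 (-0.28).

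Elovl7 and Elovl1 rose while most members fell. Elovl7 reached 2.75 to 4.03 at P23 (median 3.28), a 2.02-fold rise over P9 (LFC 1.01, SE 0.19, adjusted p 5.85e-06). Elovl1, which makes very long saturated chains such as those of myelin sphingolipids (chr5:137257287-137260483, plus strand), ranged from 3.37 to 5.00 at P9 (median 4.21) and from 4.45 to 6.01 at P23 (median 4.87). It rose 1.81-fold (LFC 0.86, SE 0.10, adjusted p 9.32e-11) in 3 of 4 combinations of region and layer. Elovl5 rose slightly (LFC 0.17, adjusted p 0.0331), a call lost in 7 of the 16 fits without 1 replicate number (LFC 0.10, adjusted p 0.224 without replicate 4 at P9). The call of Scap was lost without replicate 2 at P23 (adjusted p 0.0566).

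Cell type markers changed in the same interval. The summed level of 11 oligodendrocyte and myelin markers was 148 to 206 CPM in 7 samples of LII at P9 and 964 CPM in the other, replicate 2 of the LEC. It was 139.5 to 293 CPM in LDeep at P9, and at P23 1596 to 5573.5 CPM in LII and 4532 to 18152 CPM in LDeep. All 11 were higher at P23, with Opalin at a count of 0 in all 8 samples of LDeep at P9. Of 8 astrocyte markers 8 were higher, of 6 microglial markers 5, and of 8 neuronal markers 6, with 1 lower. The part of these shifts in the fall of the members was not tested.

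**Figure D1:**
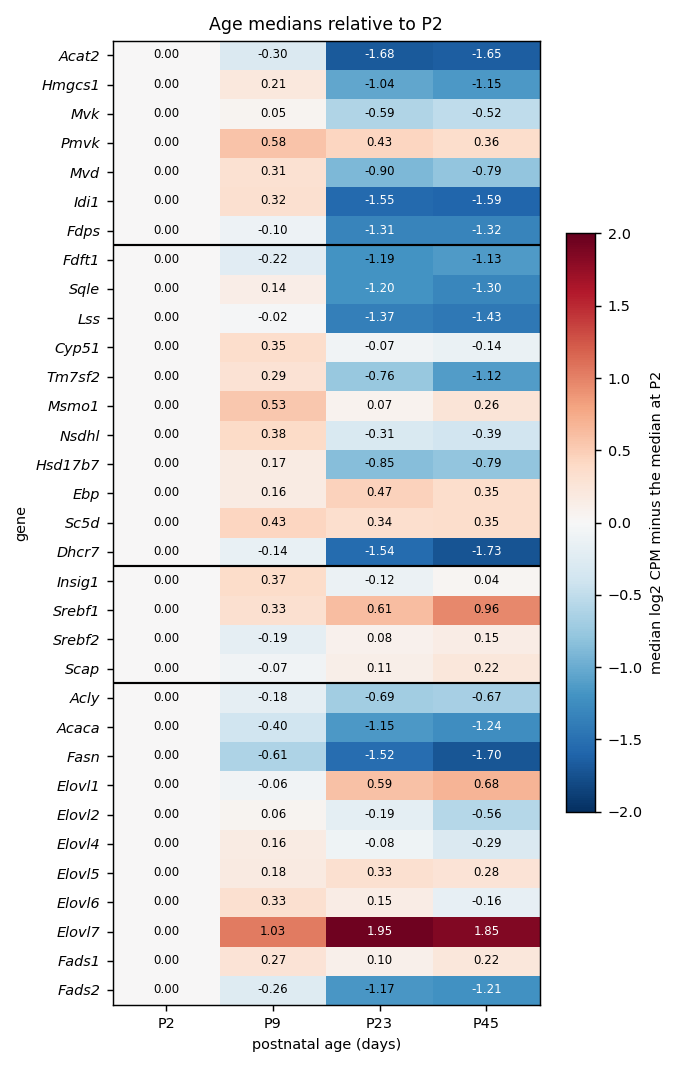
Median level of each of the 33 members by age, as log2 CPM minus the median at P2 (colour and printed value), over 20, 16, 12 and 16 samples, respectively; black lines separate the mevalonate branch, the squalene and sterol branch, the regulators and the fatty acid genes. Most rows of both sterol branches turn blue at P23 and stay so at P45, down to -1.73 for Dhcr7, while Elovl7 rises to 1.95 at P23.

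From P23 to P45 little changed. Only Tm7sf2 and Elovl2 were called, both lower (1.85% of all genes were called lower), and 0 members were called higher (1.98% of all genes) by edgeR and 0 by DESeq2, with 3 higher at an unadjusted p below 0.05. Tm7sf2, a sterol reductase (chr1:221426017-221430340, minus strand), ranged from 3.75 to 5.16 at P23 (median 4.42) and from 3.71 to 4.30 at P45 (median 4.07). The samples at P45 lay mostly in the lower part of the range at P23 (LFC -0.42, SE 0.10, adjusted p 0.00652). Without replicate 1 or replicate 3 at P23, its adjusted p was 0.0600 and 0.141. Elovl2, an elongase of polyunsaturated fatty acids (chr17:21382461-21422410, plus strand), had 6.29 to 7.01 at P23 (median 6.62) and 5.83 to 6.75 at P45 (median 6.25). It was lower at P45 in 4 of 4 combinations (LFC -0.34, SE 0.06, adjusted p 5.53e-05).

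With P23 and P45 set against P2 and P9, 21 members were lower (40.5% of all genes) and 9 higher (41.0% of all genes), with a median LFC of -0.51 against 0.01 for all genes. The largest falls were those of Idi1 (3.18-fold, LFC -1.67, SE 0.10, adjusted p 1.62e-21) and Acat2 (3.17-fold, LFC -1.66, SE 0.06, adjusted p 5.50e-31). The rises were led by Elovl7 (2.98-fold, LFC 1.58, SE 0.13, adjusted p 3.30e-16) and Elovl1 (1.74-fold, LFC 0.80, SE 0.07, adjusted p 4.31e-16). Srebf1 (0.64), Ebp (0.36), Elovl5 (0.24), Scap (0.23), Srebf2 (0.21), Sc5d (0.15) and Pmvk (0.11) were also higher. The call of Pmvk was lost in 10 of the 16 fits without 1 replicate number (adjusted p 0.444 without replicate 3 at P23), and Sc5d had an LFC of -0.026 in the LEC alone (adjusted p 0.723). Msmo1, Elovl6 and Fads1 were not called, with LFC of -0.11, -0.23 and 0.06.

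Genes of related pathways outside the members were read from 3 further lists, here between P23/P45 and P2/P9. Of 12 genes of cholesterol transport and turnover, 10 were higher and 1 lower, and of 12 companions of fatty acid synthesis 7 were higher and 5 lower. All 5 genes of myelin lipid synthesis were higher, most of all the fatty acid hydroxylase Fa2h (LFC 4.67, adjusted p 1.63e-28) and the galactosyltransferase Ugt8 (LFC 2.68, adjusted p 6.74e-33). Of the desaturases, Scd1 had medians of 5.2, 6.07, 5.38 and 5.04 log2 CPM at P2, P9, P23 and P45, and Scd2 of 10.73, 11.12, 11.48 and 11.46. Scd1 thus rose to P9 and fell to P23 (LFC 0.90 and -0.72), while Scd2 rose in both intervals (LFC 0.39 and 0.32), and both directions passed the test for each.

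**Figure D2:**
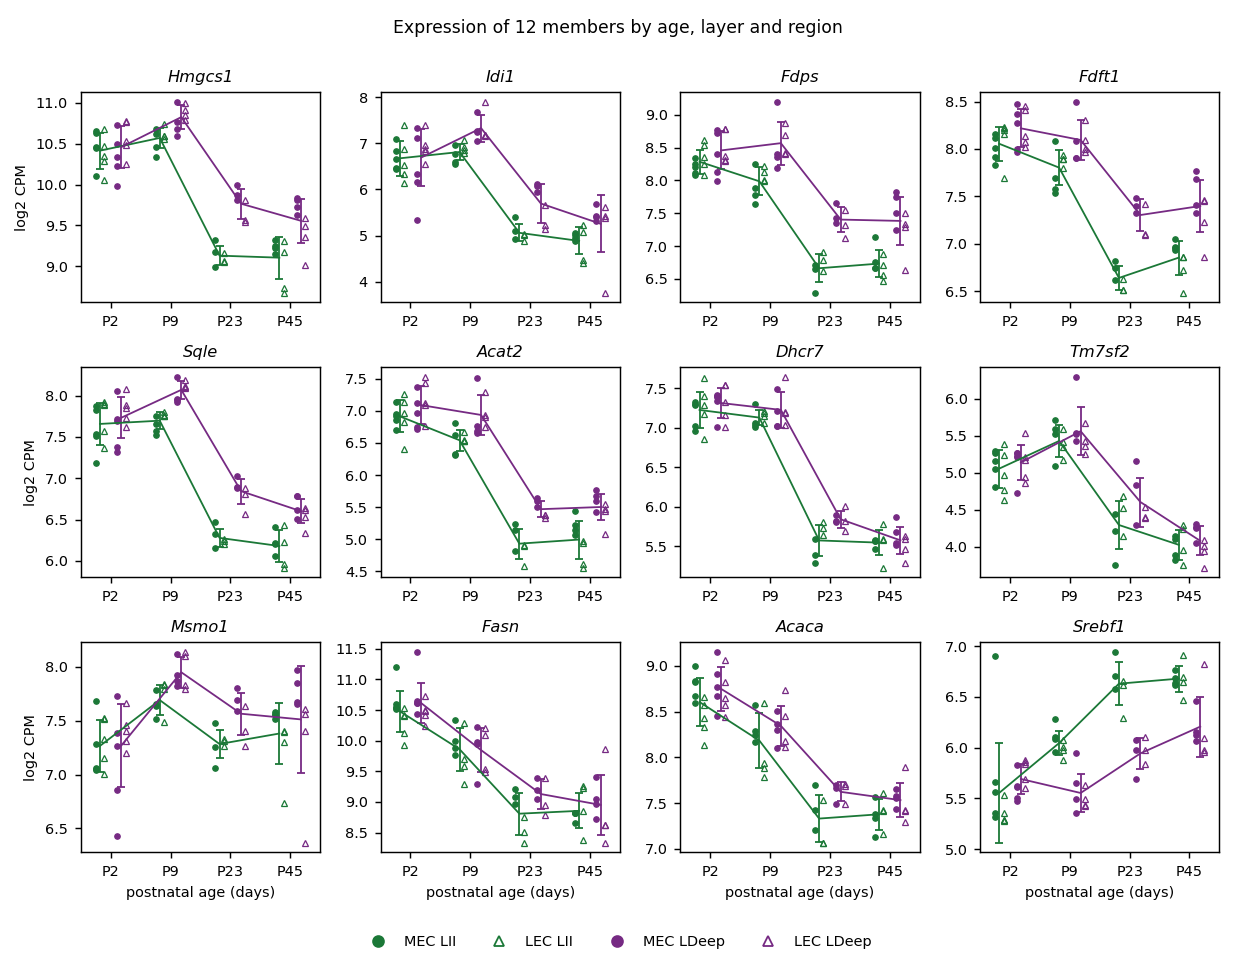
Expression of 12 members as log2 CPM (vertical axis, a different range in each panel) at each postnatal age in days (horizontal axis); points are samples (filled circles MEC, open triangles LEC), and lines with bars give the mean ± SD over both regions of LII (green) and LDeep (purple). Both layers drop between P9 and P23 in most panels, with LDeep above LII at P23, for example for Fdps at 7.12 to 7.65 in LDeep and 6.29 to 6.91 in LII, while Srebf1 shows the opposite order of the layers.

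LII and LDeep were compared to ask which members differ between layers. With ages and regions combined, 19 members were lower in LII (30.5% of all genes) and 5 were higher (23.5% of all genes), with a median LFC of -0.16 for the members and -0.05 for all genes. The 19 comprised 6 of 7 mevalonate enzymes, 8 of 11 enzymes of the squalene and sterol branch, Insig1, Srebf2, Acly, Acaca and Elovl4. Higher in LII were Srebf1, Elovl1, Elovl5, Elovl7 and Fads1. The calls of Cyp51, Msmo1, Sc5d, Dhcr7, Srebf2 and Elovl7 were each lost when at least 1 replicate number was left out, and the call of Srebf2 also without the 3 libraries that stood apart (LFC -0.12, adjusted p 0.0670). Lss was not called with at least 10 counts required in every sample (adjusted p 0.0640), nor Acaca with voom and quantile normalization (LFC -0.07, adjusted p 0.260).

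Fdps (chr2:188403595-188413219 of rn6, minus strand) showed the largest layer difference. Over all ages it lay between 6.29 and 8.61 in LII and between 6.64 and 9.19 in LDeep, with medians of 7.83 and 8.17. Within ages, LII was lower in 8 of 8 combinations of age and region (LFC -0.55, SE 0.06, adjusted p 1.51e-10). Fdft1, the squalene synthase (chr15:46339248-46367302, minus strand), had 6.48 to 8.23 in LII (median 7.64) and 6.87 to 8.50 in LDeep (median 7.94). It too was lower in LII in 8 of 8 combinations (LFC -0.42, SE 0.05, adjusted p 9.45e-11). For Idi1, with 4.41 to 7.4 in LII (median 6.39) and 3.76 to 7.90 in LDeep (median 6.26), the medians ran the other way, but LII was lower in 7 of 8 combinations (LFC -0.42, SE 0.10, adjusted p 0.000249).

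Elovl5 was higher in LII in 8 of 8 combinations. This elongase of polyunsaturated fatty acids (chr8:85259988-85285785, plus strand) lay between 5.53 and 6.61 in LII and between 5.23 and 6.02 in LDeep, with medians of 6.03 and 5.65 (LFC 0.43, SE 0.05, adjusted p 5.63e-11). Srebf1 had 5.28 to 6.94 in LII (median 6.20) and 5.35 to 6.83 in LDeep (median 5.84), with LII higher in 7 of 8 combinations (LFC 0.39, SE 0.07, adjusted p 2.17e-06) and in 6 of 8 without the 3 libraries that stood apart (LFC 0.35, also called). At P2 it was not called (LFC -0.07, adjusted p 0.749), with medians of 5.36 in LII and 5.66 in LDeep, and the LII sample at 6.91 was replicate 1 of the MEC. Without the 3 libraries LII was the lower layer at P2 in both regions. Elovl7 lay between -0.44 and 3.56 in LII and between -0.71 and 4.03 in LDeep, with medians of 2.77 and 2.24. Its difference was less regular, with LII higher in 5 of 8 combinations (LFC 0.37, SE 0.13, adjusted p 0.0140). With voom and quantile normalization its LFC was 0.09 (adjusted p 0.556), and without replicate 5 at P2 the adjusted p was 0.0591. Beside the meningeal markers, 7 of 8 astrocyte markers and 5 of 5 endothelial markers were higher in LII, and of 11 oligodendrocyte markers 1 was higher and 6 were lower. Their part in the layer differences of the members was not tested.

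**Figure D3:**
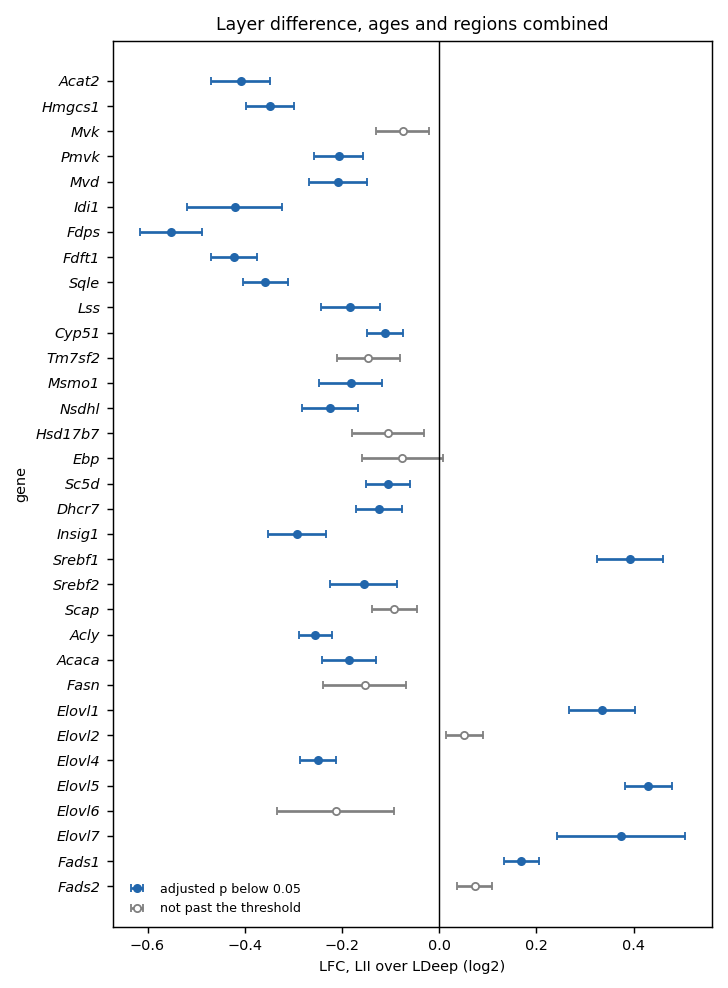
LFC of LII over LDeep with ages and regions combined (horizontal axis, log2 scale; bars are ± 1 SE) for the 33 members (vertical axis), with blue filled points for an adjusted p below 0.05. All points of the sterol enzymes lie left of 0, the farthest being Fdps at -0.55, and the filled points of Srebf1, Elovl1, Elovl5, Elovl7 and Fads1 lie to the right.

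Layer differences were few at P2. There 2 members were higher in LII (10.7% of all genes) and 2 lower (8.43% of all genes). Elovl7 had -0.44 to 2.18 log2 CPM in LII (median 1.83) and -0.71 to 1.71 in LDeep (median 0.64), with an LFC of 1.05 (SE 0.27, adjusted p 0.00409). The LDeep sample at 1.71 was replicate 1 of the MEC, which carried meningeal and LII markers (other MEC LDeep samples -0.71 to 1.04). In MEC LII, replicates 1 and 3, which were poor in meningeal markers, had 0.34 and -0.44 (others 1.77 to 2.06). Elovl1 had 3.41 to 4.85 in LII (median 4.54) and 3.45 to 4.33 in LDeep (median 3.92), with an LFC of 0.53 (SE 0.12, adjusted p 0.000960). By region, its LII minus LDeep was 0.96 in the LEC and 0.05 in the MEC (0.35 without the 3 libraries that stood apart). Mvd (LFC -0.28, SE 0.10, adjusted p 0.0466) and Elovl2 (LFC -0.19, SE 0.07, adjusted p 0.0321) were near the threshold, and Mvd was not called without the 3 libraries that stood apart (adjusted p 0.0599). Mvd lay between 5.09 and 6.05 in LII and between 5.70 and 6.58 in LDeep, with medians of 5.79 and 5.96, and Elovl2 from 6.57 to 7.08 and from 6.71 to 7.15 (medians 6.71 and 6.94), so the layers overlapped. With RLE size factors the split was 2 higher and 0 lower, and with voom and quantile normalization 1 higher and 0 lower. The call of Elovl7 was lost without replicate 5 (adjusted p 0.0648). In place of 4 members, 1 was called without replicate 5 at P2 and 2 without replicate 2 at P2, without replicate 4 at P9 or without any 1 of the replicate numbers at P23 and P45.

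At P9, 12 members were lower in LII (16.2% of all genes) and 4 higher (16.7% of all genes). Fdps lay between 7.64 and 8.25 in LII and between 8.2 and 9.19 in LDeep, with medians of 8.0 and 8.41, so that the layers met only at the edge (LFC -0.61, SE 0.13, adjusted p 0.000132). Idi1 had 6.56 to 7.07 in LII (median 6.82) and 7.05 to 7.90 in LDeep (median 7.21) (LFC -0.54, SE 0.19, adjusted p 0.0208), a call lost without any 1 of the 4 replicate numbers at P9 (adjusted p 0.0551 to 0.102). Elovl1 was the clearest difference in the other direction. All 8 samples of LII (4.30 to 5.00, median 4.67) lay above all 8 of LDeep (3.37 to 4.12, median 3.66), a 2.05-fold difference (LFC 1.03, SE 0.13, adjusted p 3.08e-08). Elovl7 was also higher in LII, with 1.87 to 3.16 (median 2.71) against 1.4 to 2.63 (median 1.89) (LFC 0.75, SE 0.26, adjusted p 0.0200, and 0.0635 to 0.0801 without replicate 1, 2 or 3 at P9). With voom and quantile normalization, 6 members were lower and 4 higher, and without replicate 1, 2 or 4 at P9 the calls numbered 9, 8 and 8 in place of 16.

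At P23, 12 members were lower in LII (11.0% of all genes) and 5 higher (14.9% of all genes). Fdps had 6.29 to 6.91 in LII (median 6.68) and 7.12 to 7.65 in LDeep (median 7.39), without overlap (LFC -0.74, SE 0.15, adjusted p 8.51e-05). Fdft1 also separated the layers, with 6.51 to 6.82 in LII (median 6.63) and 7.09 to 7.48 in LDeep (median 7.36) (LFC -0.67, SE 0.11, adjusted p 4.33e-06). Srebf1 separated them in the opposite direction, with 6.29 to 6.94 in LII (median 6.63) and 5.69 to 6.10 in LDeep (median 5.98) (LFC 0.69, SE 0.15, adjusted p 0.000417), and so did Elovl5, with 6.02 to 6.59 (median 6.35) against 5.67 to 5.88 (median 5.75) (LFC 0.55, SE 0.11, adjusted p 0.000108). These 4 are differences between 6 samples and 6 samples. Without replicate 2 or without replicate 3 at P23, 11 members were called in place of 17.

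At P45, 10 members were lower in LII (11.9% of all genes) and 4 higher (14.4% of all genes). Fdps had 6.47 to 7.14 in LII (median 6.69) and 6.64 to 7.82 in LDeep (median 7.42), where the LDeep sample at 6.64 is replicate 4 of the LEC (LFC -0.67, SE 0.13, adjusted p 3.99e-05). Fdft1 lay between 6.48 and 7.05 in LII and between 6.87 and 7.76 in LDeep, with medians of 6.90 and 7.43 (LFC -0.56, SE 0.10, adjusted p 6.89e-06). Elovl5 was higher in LII, with 5.71 to 6.61 (median 6.23) against 5.36 to 5.96 (median 5.67) (LFC 0.53, SE 0.10, adjusted p 1.85e-05), and Srebf1 too, with 6.47 to 6.92 (median 6.67) against 5.96 to 6.83 (median 6.11) (LFC 0.45, SE 0.13, adjusted p 0.00684). The call of Srebf1 was lost without replicate 1, 2 or 3 at P45 (adjusted p 0.0560 to 0.115), and without replicate 3 at P45 only 9 members were called. Elovl2 was called higher in LII (LFC 0.20, adjusted p 0.0377) but not without the 3 libraries that stood apart (LFC 0.13, adjusted p 0.179).

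Whether the layer difference itself changed with age was tested as an interaction. From P2/P9 to P23/P45 it became more negative for 4 members (3.97% of all genes) and more positive for 2 (4.82% of all genes). Elovl1 was higher in LII at P2 (mainly in the LEC) and P9. Its LFC was -0.36 at P23 (adjusted p 0.0731) and 0.13 at P45 (adjusted p 0.501), a change of -0.89 (SE 0.13, adjusted p 2.91e-06). In LDeep its median rose from 3.66 at P9 to 5.07 at P23, and in LII from 4.67 to 4.87. The layer difference of Elovl7 likewise went from 1.05 and 0.75 at P2 and P9 to -0.30 and -0.01 at P23 and P45 (change -1.05, SE 0.26, adjusted p 0.00536). Hmgcs1 and Fdft1 moved further below LDeep (changes -0.39 and -0.38, adjusted p 0.00549 and 0.0059), with Hmgcs1 at 8.99 to 9.32 in LII and 9.54 to 10 in LDeep at P23.

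Elovl2 and Fads1 moved the other way. Elovl2 was lower in LII at P2 and higher at P23, with 6.64 to 7.01 in LII and 6.29 to 6.60 in LDeep, where the layers no longer overlapped (change 0.42, SE 0.08, adjusted p 7.57e-05). Its layer call at P2 was lost in 11 of the 16 fits without 1 replicate number, and that at P23 without replicate 1 at P23 (LFC 0.19, adjusted p 0.227). Fads1, a desaturase of polyunsaturated fatty acids (chr1:226234113-226249116, plus strand), differed little at P2 (7.51 to 8.22 in LII, 7.67 to 7.98 in LDeep) and was higher in LII at P23 (7.85 to 8.48 and 7.71 to 8.0), a change of 0.28 (SE 0.07, adjusted p 0.00505). This change was not called in 4 of the 16 fits without 1 replicate number (adjusted p 0.0606 to 0.125), and its layer call at P23 was lost without replicate 1 at P23 (adjusted p 0.0606). Without the 3 libraries that stood apart, 12 members were called in place of 6, of which 9 were negative and 3 positive, and 11 without replicate 4 at P45. Oligodendrocyte markers shifted in the same contrast, with 9 of 11 more negative (median change -1.55). Their part in these changes was not tested.

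**Figure D4:**
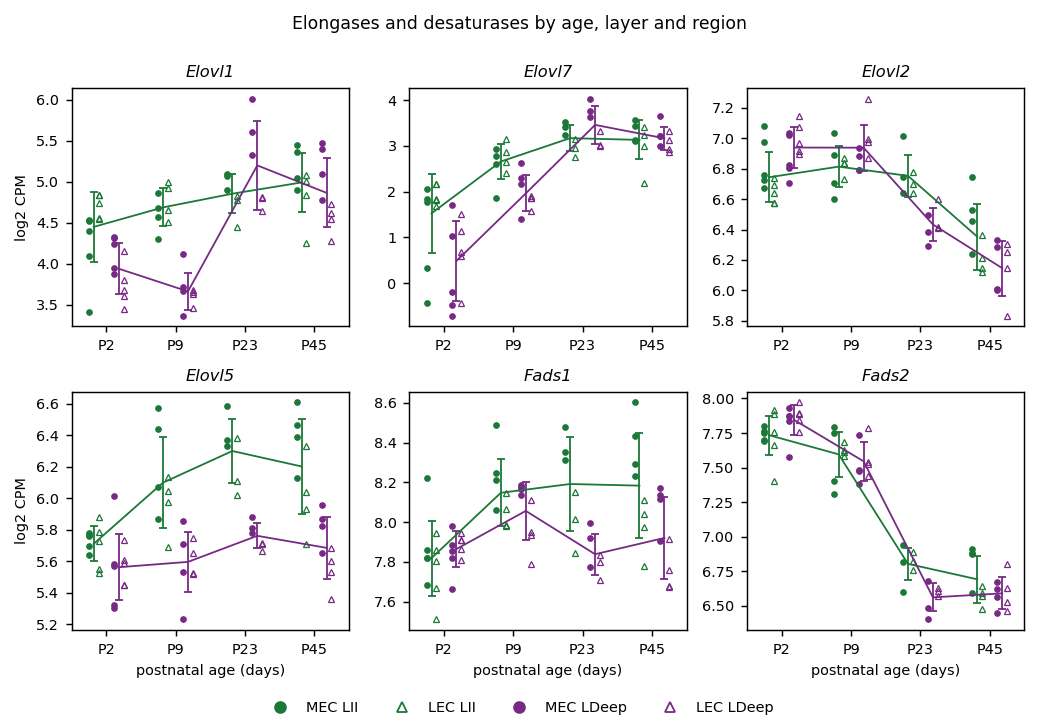
Expression of 4 elongases and both Fads desaturases as log2 CPM (vertical axis, a different range in each panel) at each postnatal age in days (horizontal axis); points are samples (filled circles MEC, open triangles LEC), and lines with bars give the mean ± SD over both regions of LII (green) and LDeep (purple). The layer lines of Elovl1 cross between P9 (3.37 to 4.12 in LDeep, 4.30 to 5.00 in LII) and P23. They cross back by P45, where the means were 4.99 in LII and 4.87 in LDeep. Between P9 and P23 the lines of Elovl2 cross in the opposite direction, and Fads2 falls in both layers.

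MEC and LEC were compared in the same way. With ages and layers combined, 6 members were higher in the MEC (8.81% of all genes), and 0 were lower (6.48% of all genes) by edgeR, 0 by DESeq2 and 0 at an unadjusted p below 0.05. All 6 differences were small. Elovl1 ranged from 3.37 to 6.01 in the 32 samples of the MEC (median 4.63) and from 3.45 to 5.08 in the 32 of the LEC (median 4.59) (LFC 0.28, SE 0.07, adjusted p 0.00192). Its mean was higher in the MEC than in the LEC at P23 (5.34 against 4.72) and P45 (5.19 against 4.67). At P2 (4.17 against 4.22) and P9 (4.16 against 4.19) it was not. Fads1 ranged from 7.67 to 8.60 in the MEC (median 8.14) and from 7.51 to 8.15 in the LEC (median 7.91), higher in the MEC in 7 of 8 combinations of age and layer (LFC 0.22, SE 0.04, adjusted p 4.05e-06). Mvd, the decarboxylase that makes isopentenyl diphosphate (chr19:55258910-55268933, minus strand), had 4.72 to 6.79 in the MEC (median 5.79) and 4.48 to 6.58 in the LEC (median 5.73), with an LFC of 0.18 (SE 0.06, adjusted p 0.0297) in 8 of 8 combinations. Lss (0.17), Elovl5 (0.17) and Elovl4 (0.11) were the other 3. The calls of Mvd, Lss and Elovl4 were each lost when at least 1 replicate number was left out, and without replicate 2 at P9 only 3 members were called. Elovl4 was also not called without the 3 libraries that stood apart (adjusted p 0.0894). A fit with a replicate block called more members, as given in the last paragraph.

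Regions differed in the change with age for 3 members, all with a more positive change in the MEC (2.05% of all genes). A more negative change was called for 0 members (2.28% of all genes) by edgeR and 0 by DESeq2, with 1 at an unadjusted p below 0.05. Elovl1 had 3.41 to 4.54 in the MEC and 3.45 to 4.85 in the LEC at P2, and 4.91 to 6.01 in the MEC and 4.45 to 4.83 in the LEC at P23. Every MEC sample at P23 thus lay above every LEC sample, whereas the regions overlapped at P2 (difference of the changes 0.61, SE 0.13, adjusted p 0.00294). Sc5d had one of 0.35 (SE 0.09, adjusted p 0.0163), with medians of 6.88 and 6.60 in LDeep of MEC and LEC at P23 and of 5.92 and 6.35 at P2. Cyp51, the lanosterol demethylase, had one of 0.26 (adjusted p 0.0295). The call of Cyp51 was lost in 7 and that of Sc5d in 2 of the 16 fits without 1 replicate number, and without replicate 1 at P23 only Elovl1 was called. Without replicate 2 or 3 at P2 or replicate 4 at P9 the calls numbered 6, 5 and 5. More members were also called with a replicate block, as given in the last paragraph.

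The layer difference itself differed between regions for Elovl1, where it was more negative in the MEC (0.303% of all genes were called in this direction). A more positive one was called for 0 members (0.934% of all genes) by edgeR and 0 by DESeq2, with 3 at an unadjusted p below 0.05. The contrast combines all ages, and P23 was not the only age with a gap. For Elovl1 at P2, LII minus LDeep was 0.05 in the MEC and 0.96 in the LEC. The MEC value was 0.35 without the 3 libraries that stood apart. At P23 the 3 MEC samples of LDeep had 5.33 to 6.01 log2 CPM of Elovl1 against 4.91 to 5.10 in LII, while the LEC had 4.64 to 4.82 in LDeep and 4.45 to 4.83 in LII. The difference of the layer differences was -0.51 (SE 0.13, adjusted p 0.0370) and was not called in 7 of the 16 fits without 1 replicate number, those without replicate 1 at P2, 1 or 2 at P9, 1 or 3 at P23, and 1 or 3 at P45. The 11 oligodendrocyte markers differed between regions as well, with 7 of 11 rising more with age in the MEC. Their summed level in LDeep at P23 was 13125 to 18152 CPM in the MEC and 4532 to 7841 CPM in the LEC. Their part in the values of Elovl1 was not tested.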

How the data were processed

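RNA-seq counts of 64 samples in 16 groups of region, layer and age were used as the authors deposited them. Libraries were made with a stranded total RNA kit after ribosomal RNA depletion and sequenced. Per the submitters' processing notes, the tools were bcl2fastq 1.8.4, Trimmomatic 0.33, STAR 2.4.0 and featureCounts of Subread 1.4.6-p1, on build rn6, so that the deposited values are raw read counts per gene, 1 file per sample.

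Counts were tested with edgeR 4.0.16 in R 4.3.3 (TMM scaling, low-count filter by group, robust quasi-likelihood fit of 16 group means, 12521 of 17260 genes). LFC, SE and BH adjusted p came from this fit, and a gene was called below 0.05. For levels, log2 CPM was computed with 2 as the prior count. The members and lists were chosen with earlier results of these data known. Sample values are given for the called members with the largest absolute LFC, up to 3 per direction in the comparisons of adjacent ages, of layers with ages combined and of regions, and up to 2 elsewhere. Hmgcs1, and Sqle and Fads2 in plots, were added for the pathway. Of genes outside the members, Scd2 and those with the largest LFC were named, and Scd1 was added after its values were seen. Some genes of these pathways that the rule named, and their list, are not reported here.

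Totals of 3894334 to 11439143 counts make counting error small beside replicate spread except for the lowest genes. Replicates of a group differed beyond sampling noise in all 100 pairs (lowest chi-square per degree of freedom 3.17), so none was merged. The scripts were tested on simulated counts. Alternatives were DESeq2 1.42.0, RLE size factors, limma 3.58.1 with voom and quantile normalization, other filters, an LFC minimum of 0.5, a replicate block, sums per age and replicate number, each region alone and each replicate number left out. After the data were seen, a fit without 3 libraries was added.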

Additional observations from a re-analysis of the deposited data

Results flagged for a closer look

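Of the 33 members, the 18 whose sample values the text gives by rule were screened, and 15 were not. In groups of 4 or 5 samples, 18 of their 216 groups of log2 CPM held a sample flagged by Dixon's ratio, and chance alone gives about 5% of groups. The ratio divides the gap to the nearest sample by the range of the group. A small gap can thus be flagged where the other samples lie close together. Replicate 4 of LEC LDeep at P45 was the flagged sample in 3 of the 18 groups. It had 3.76 for Idi1 (others 5.38 to 5.63), 6.37 for Msmo1 (others 7.41 to 7.61) and 6.83 for Srebf1 (others 5.96 to 6.09). Replicate 1 of MEC LII at P2 had 6.91 for Srebf1 (others 5.31 to 5.67) and 11.2 for Fasn (others 10.52 to 10.60). Both are among the libraries that correlated least with their group.

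In replicate 4 of MEC LDeep at P9, Acat2 was at 7.51 (others 6.65 to 6.76) and Tm7sf2 at 6.29 (others 5.43 to 5.54). In replicate 3 of MEC LDeep at P2, Tm7sf2 was at 4.73 (others 5.21 to 5.27) and Dhcr7 at 7.0 (others 7.33 to 7.41). Fasn reached 11.45 in replicate 4 of MEC LDeep at P2 (others 10.43 to 10.64) and 8.66 in replicate 1 of MEC LII at P45 (others 8.81 to 8.82). Dhcr7 was at 5.47 in replicate 2 of MEC LII at P45 (others 5.57 to 5.58).

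The remaining samples were from the LEC. Acat2 was at 6.67 in replicate 3 of LII at P9 (others 6.53 to 6.55), and Idi1 at 7.9 in replicate 1 of LDeep at P9 (others 7.15 to 7.18). Fdft1 was at 7.7 in replicate 3 of LII at P2 (others 8.16 to 8.23). Msmo1 was at 6.73 in replicate 2 of LII at P45 (others 7.30 to 7.41) and at 7.49 in replicate 4 of LII at P9 (others 7.79 to 7.84). Elovl7 was at 1.58 in replicate 3 of LDeep at P9 (others 1.86 to 1.90).

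Effects that differed between groups by an interaction test of edgeR were those of the layer difference between P23/P45 and P2/P9 for Hmgcs1 (-0.39), Fdft1 (-0.38), Elovl1 (-0.89), Elovl2 (0.42), Elovl7 (-1.05) and Fads1 (0.28). The layer difference differed between MEC and LEC for Elovl1 (-0.51). The age difference was larger in the MEC for Cyp51 (0.26), Sc5d (0.35) and Elovl1 (0.61).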

How the results depend on the processing

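Of 4891 recomputed values of 194 called gene results, 4418 kept their direction and their side of the threshold, 471 kept the direction only and 2 changed sign, which were Cyp51 between layers with voom and quantile normalization (LFC 0.000365, adjusted p 0.995) and Sc5d between older and younger ages in the LEC alone (LFC -0.026, adjusted p 0.723). Of 334 recomputed counts of called members, 272 stayed within 1.5 times the count reported. No alternative shifted the median LFC of all genes by more than 0.1. The counts for P23 against P9 (28) and for older against younger ages (30) stayed within that limit under every alternative.

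With an LFC minimum of 0.5, which by construction leaves fewer genes, the calls were 4 for P9 against P2, 0 for P45 against P23, 1 between layers with ages combined, 2, 5, 8 and 4 between layers at P2, P9, P23 and P45, 0 between regions, 2 for the layer difference by age and 1 for the age difference by region. In fewer samples, the MEC alone gave 0 calls for P45 against P23 and 0, 3 and 6 between layers at P2, P9 and P45, and the LEC alone gave 13 for P9 against P2, 1 for P45 against P23 and 5, 9 and 8 between layers at P9, P23 and P45. Between layers at P2, the calls were 2 with RLE size factors, 1 with voom and quantile normalization, 2 without a filter and 1 with at least 10 counts in every sample. At P9 they were 10 with voom and 9 with at least 10 counts. With voom the layer difference by region had 0 calls, and without the 3 libraries that stood apart the layer difference by age had 12. Sums per age and replicate number gave 1 call for P45 against P23. The cause of these shifts was not tested.

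With 1 replicate number left out, the calls ranged from 20 to 23 for P9 against P2, 25 to 29 for P23 against P9, 1 to 2 for P45 against P23, 29 to 31 for older against younger ages and 21 to 25 between layers with ages combined. They ranged from 1 to 6, 8 to 16, 11 to 22 and 9 to 15 between layers at P2, P9, P23 and P45, from 3 to 8 between regions, from 5 to 11 for the layer difference by age, from 0 to 1 for the layer difference by region and from 1 to 6 for the age difference by region. Without the 3 libraries, 5 of 194 gene calls were lost, 4 of members and that of Scd2 between regions (LFC 0.12, adjusted p 0.0508).

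The labels do not say that a replicate number marks an animal. Deviations from the group means had a mean correlation of 0.134 in 96 pairs of samples with the same number (lowest -0.259) and of -0.043 in 300 other pairs. For 42 of 64 samples, the mean correlation with the samples of a number was highest for their own number. The correlation was above 0.1 in 55 of the 96 pairs with the same number and in 59 of the 300 others. The main fit has no block, as the labels do not tie a number to an animal and not every same-numbered pair passed 0.1. Samples that share an animal could also stay below 0.1, so this criterion cannot exclude that a number marks an animal. Same-numbered samples deviated together more often than others. If a number marks an animal, the main fit treats samples of 1 animal as independent, and its p-values between ages may then be too small. With a replicate block, 10 members were called between regions and 9 for the age difference by region, and all of 104 gene calls tested were kept. With a random block, 1 member was called for P45 against P23. Of the gene calls between ages, 87 were kept and 3 lost the threshold with the random block. With sums per age and replicate number, 83 were kept and 7 lost it.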
